A study of Mus musculus with 4 samples.

Results

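The genes described here are the Wnt ligands, their receptors, the secreted proteins that modulate them and the core intracellular components of the pathway, measured in skin of mice lacking Bmal1. They were chosen by gene symbol alone: Wnt, Fzd, Sfrp, Dkk and Rspo genes, Lgr4, Lgr5 and Lgr6, and 14 further symbols, namely Frzb, Wif1, Notum, Kremen1, Lrp5, Lrp6, Ctnnb1, Axin1, Axin2, Apc, Lef1, Tcf7, Tcf7l1 and Tcf7l2. Of these symbols, Tcf7 was not analysed here, and 58 genes were found among the 19938 genes that the array represents by a probe set paired with 1 symbol. Where a gene had several such probe sets, the one with the highest mean was used, which mattered only for Wnt4. The 58 include Fzd10os, a long non-coding RNA transcribed next to Fzd10, which matches the symbol pattern but encodes no receptor.

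Whole back skin was taken from 4 C57Bl6 mice at postnatal day 22, with the hair follicles resting (telogen), and at ZT22, 22 hours after lights on in a 12 hours light and 12 hours dark cycle. The 2 control mice, called het, were heterozygous, with 1 mutant and 1 wild-type Bmal1 allele, so that the controls also carried the mutation. The 2 KO mice were germline deleted for both Bmal1 alleles, in every cell type and from conception. Each mouse gave 1 Affymetrix array, and the design text calls the mice biological littermate replicates. The BMAL1 protein binds E-box elements together with CLOCK and drives the circadian clock. The comparison of KO with het arrays asks which skin transcripts depend on it at this hour. Levels are log2 signals after quantile normalization, differences are KO minus het on the log2 scale, and the probe sets of different genes have no common scale, so no gene's level is set against another's. Whole skin mixes many cell types, and a lower level can mean fewer cells of a type or less RNA per cell, which cannot be told apart here.

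Wnt proteins are lipid-modified secreted signals. In the canonical branch a Wnt binds a Frizzled receptor together with the co-receptor LRP5 or LRP6, the destruction complex built on AXIN and APC stops marking beta-catenin for degradation, and beta-catenin enters the nucleus and acts with TCF and LEF factors. Secreted Frizzled-related proteins (SFRPs) and WIF1 bind Wnts outside the cell, DKK proteins block the co-receptors, and R-spondins acting through LGR4, LGR5 and LGR6 raise the number of Frizzled receptors on the surface. In skin, Wnt signalling is needed to form hair follicles and to start their growth phase, and Wnt inhibitors are known to be abundant around resting follicles.

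The members that differed most between the genotypes belonged to a single family, the SFRPs, and they differed in opposite directions. Frzb (also called Sfrp3) was higher in KO skin and Sfrp2 was lower, each by far more than the gap between mice of the same genotype. The promoter windows of both genes are shown here because these genes carry the main observation. That of Wif1, another secreted inhibitor, is shown because it holds a canonical E-box, and it was picked with its difference of -0.04 known. The KO arrays of Wif1 lay on either side of its het arrays. The 95% interval of -0.50 to 0.41 leaves room for a change of either sign. The part of E-boxes in the differences was not tested. The windows run from 250 bases before to 50 bases after the annotated start, are written 5′ to 3′ on the strand of the gene, and come from RefSeq on build GRCm38.p6. Capitals mark matches to 3 motifs searched on both strands: CACGTG, the canonical E-box bound by CLOCK and BMAL1, CACGTT, a variant E-box, and AGGTCA, the core of the element bound by the ROR and REV-ERB nuclear receptors.
Frzb, chr2:80447347-80447646, minus strand: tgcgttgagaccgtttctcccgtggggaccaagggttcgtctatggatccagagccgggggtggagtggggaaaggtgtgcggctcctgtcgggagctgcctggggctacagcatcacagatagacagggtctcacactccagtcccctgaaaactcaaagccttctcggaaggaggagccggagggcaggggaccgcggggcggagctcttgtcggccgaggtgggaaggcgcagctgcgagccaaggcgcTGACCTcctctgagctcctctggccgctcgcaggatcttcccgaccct
Sfrp2, chr3:83766071-83766370, plus strand: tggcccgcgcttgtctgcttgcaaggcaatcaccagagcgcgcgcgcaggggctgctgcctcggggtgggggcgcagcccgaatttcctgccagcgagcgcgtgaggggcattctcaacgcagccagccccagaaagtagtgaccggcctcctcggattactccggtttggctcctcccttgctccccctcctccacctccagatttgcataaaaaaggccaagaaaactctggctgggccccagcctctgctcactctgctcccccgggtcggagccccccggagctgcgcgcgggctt
Wif1, chr10:121033754-121034053, plus strand: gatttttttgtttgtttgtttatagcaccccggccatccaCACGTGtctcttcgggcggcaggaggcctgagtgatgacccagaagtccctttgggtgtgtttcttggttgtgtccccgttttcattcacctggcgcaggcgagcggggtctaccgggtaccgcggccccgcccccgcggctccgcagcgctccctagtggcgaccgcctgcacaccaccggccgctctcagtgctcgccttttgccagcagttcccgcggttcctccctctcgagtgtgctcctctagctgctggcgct

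The Frzb window held AGGTCA, read on the opposite strand as TGACCT from base 3 after the start, and none of the E-box motifs. The Sfrp2 window held no match to any of the 3 motifs. The Wif1 window held CACGTG from base 210 before the start. Windows were given for 36 of the 58 genes. Some genes had several, so these were 44 windows. CACGTG was found in 5 of the 44, those of Fzd9, Lef1, Rspo4, Wif1 and Wnt9a, and in 7.15% of all 32851 windows. The differences of these 5 genes ran from -0.16 for Fzd9 to 0.13 for Lef1. CACGTT was found in 1 of the 44, that of Rspo1, against 4.68% of all windows. AGGTCA was found in 2 of the 44, those of Frzb and Wnt16, against 16.3%. A match is a description of the letters and not evidence of binding, and 300 bases leave out distant elements.

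No member passed an adjusted p of 0.05 in the limma test of all 17557 probe sets tested, as no probe set on the array did (0% called). The alternatives under which members did pass are given with the dependence on processing. Of the 58 members, 54 lay above the filter on low values and were tested. Arntl, the probe set for Bmal1 itself, read 8.90 and 9.08 in the het arrays and 8.29 and 8.16 in the KO arrays. Its difference was -0.76 (SE 0.12, 2 mice of each genotype) and its limma adjusted p was 0.102, so the deleted gene itself did not pass either. An exact permutation test of 2 arrays against 2 cannot go below p = 0.333, and none was used for single genes.

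At an unadjusted limma p under 0.05, 9 of the 54 tested members differed, 4 higher and 5 lower in KO skin, beside 15.5% of all tested probe sets, 9.64% higher and 5.82% lower. The share of members was thus near that of the whole array. Of all probe sets past this threshold, 62.4% were higher in KO skin, against 72.6% with the values as deposited and 79.3% after median centring. The members gave 6 higher and 5 lower with the values as deposited, and 6 higher and 4 lower after median centring. The higher members were Frzb, Sfrp4, Axin1 and Wnt3. The lower members were Sfrp2, Sfrp1, Wnt16, Wnt2 and Wnt9b. The median size of the difference, whatever its sign, was 0.12 over the members and 0.14 over all tested probe sets.

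The members as a group had no common direction. Their median difference was -0.02, and 21 of 54 were higher in KO skin, beside 52.6% of all tested probe sets, but after median centring 35 of 54 were higher. The genotype difference exceeded the gap between the 2 mice of either genotype in 19 of the 54 members, and in 35.8% of all tested probe sets. The arrays of the genotypes did not overlap for 26 members, beside 49.4% of all tested probe sets.

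**Figure D1:**
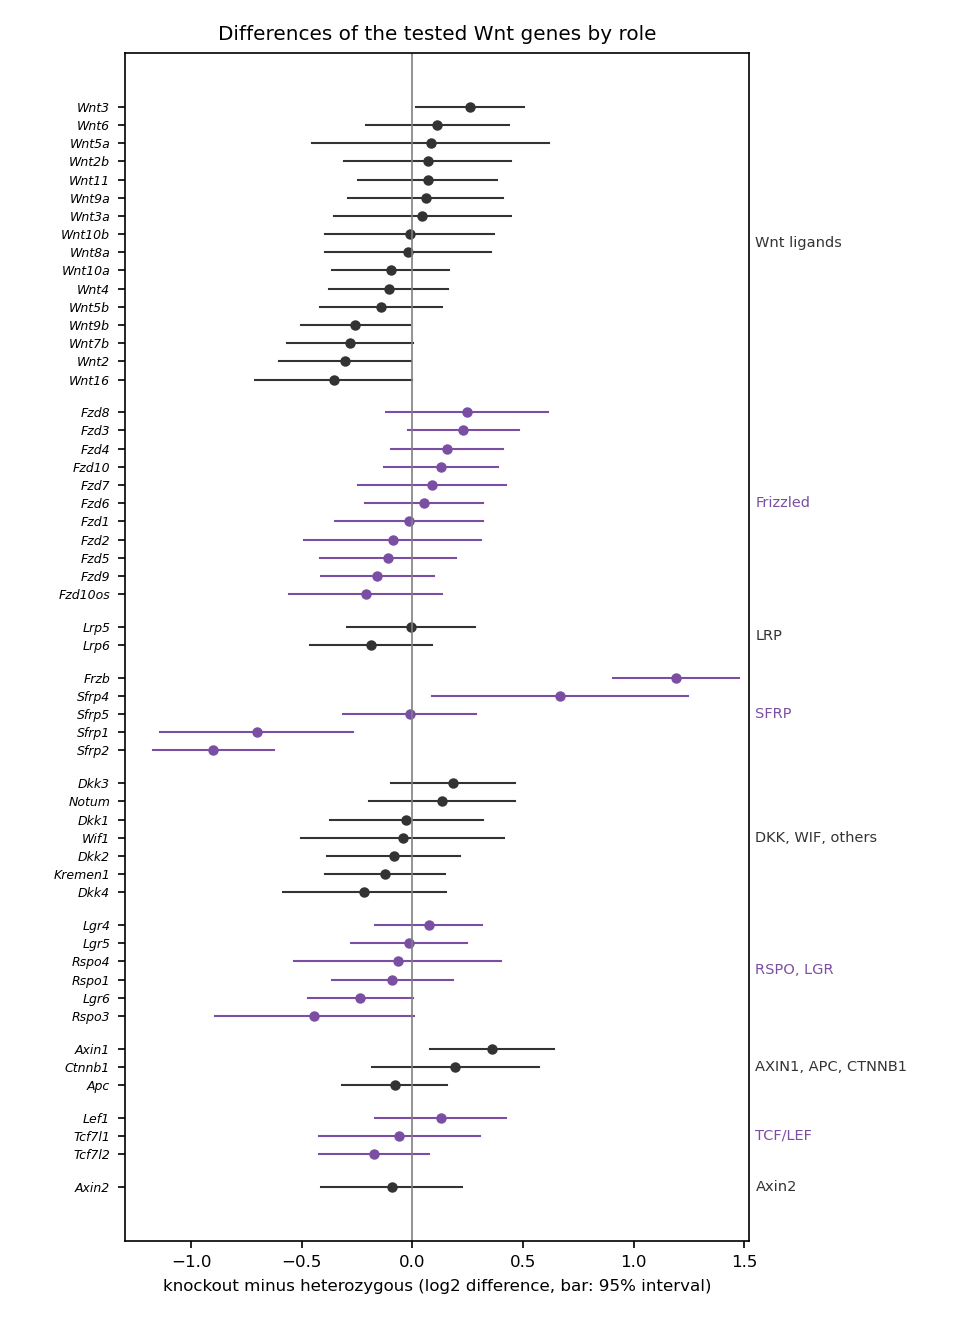
Difference between KO and het arrays (horizontal axis, log2) for the 54 tested genes, grouped by role, with the limma 95% interval as a bar. The SFRP family spans from -0.90 for Sfrp2 to 1.19 for Frzb, while 38 of the 54 genes lie within 0.2 of 0.

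Among the SFRP genes, which encode secreted proteins with a Frizzled-like Wnt-binding domain, 4 of 5 had an unadjusted p under 0.05. The share over all tested probe sets was 15.5%, and the genes were grouped with earlier results of these data known. Frzb read 7.18 and 7.28 in the het arrays and 8.34 and 8.50 in the KO arrays. Both KO arrays lay above both het arrays, by more than 1 log2 unit. The difference was 1.19 (SE 0.12, 95% interval 0.91 to 1.47), a signal 2.28-fold higher, with a limma adjusted p of 0.094. By unadjusted p, Frzb ranked 8 of 17557 tested probe sets.

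Sfrp2 read 9.87 and 10.00 in the het arrays and 9.11 and 8.96 in the KO arrays, so that both KO arrays lay below both het arrays. The difference was -0.90 (SE 0.11, 95% interval -1.17 to -0.63), which left 53.6% of the het signal, with a limma adjusted p of 0.094. It ranked 27 of 17557 by unadjusted p. Sfrp2 is a gene of dermal fibroblasts and of the dermal papilla, the mesenchymal cluster at the base of the follicle.

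Sfrp1 was lower in KO skin, like Sfrp2. It read 9.42 and 9.19 in the het arrays and 8.37 and 8.83 in the KO arrays, again without overlap, but with a gap of 0.47 between the KO mice. The difference was -0.70 (SE 0.18, limma adjusted p 0.190), which left 61.4% of the het signal. It was -0.47 without KO mouse 1 and -0.94 without KO mouse 2.

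Sfrp4 read 9.06 and 8.43 in the het arrays and 9.21 and 9.62 in the KO arrays. The genotypes did not overlap, although het mouse 1 came within 0.2 of KO mouse 1. The difference was 0.67 (SE 0.24, limma adjusted p 0.279). Without het mouse 2 it was 0.35, so its size rested in large part on that mouse, and without het mouse 1 it was 0.99. Sfrp5, the remaining member of the family, read 7.96 and 7.75 in the het arrays and 7.78 and 7.91 in the KO arrays. Its arrays overlapped, with a difference of -0.01 and a 95% interval of -0.31 to 0.29.

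**Figure D2:**
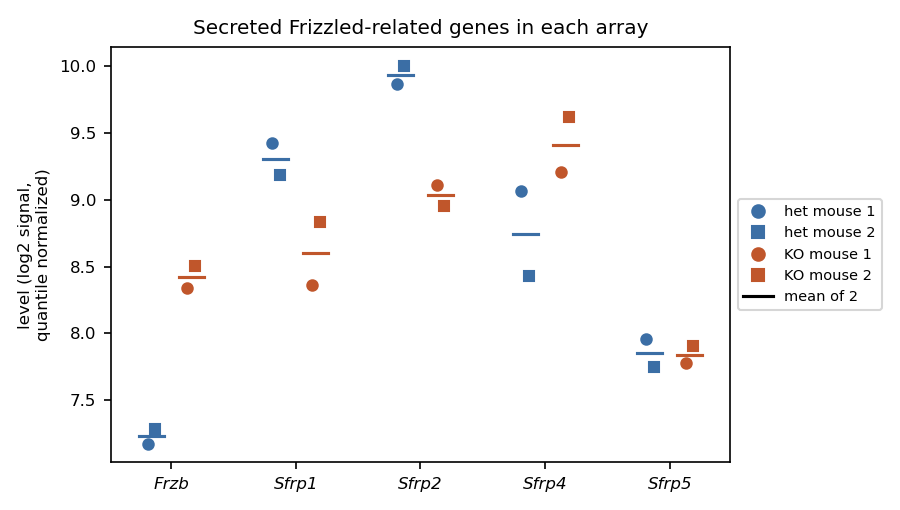
Level of each SFRP gene (vertical axis, log2 signal after quantile normalization) in each of the 4 arrays, with het mice in blue, KO mice in orange and a line at the mean of each genotype. The KO points of Frzb and Sfrp4 sit above the het points, those of Sfrp1 and Sfrp2 below them, and those of Sfrp5 among them, while levels of different genes are not comparable.

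Markers of the skin cell types were read in the same arrays. Dermal fibroblast markers (11 of 12 tested, among them Col1a1, Dcn and Pdgfra) were split, 5 higher and 6 lower in KO skin. Their mean level was 11.32 and 11.08 in the het arrays and 11.15 and 11.20 in the KO arrays. Dermal papilla markers (8 of 9 tested) were 3 higher and 5 lower, and Sox2 lay below the filter. Their mean levels were 8.06 and 8.10 against 8.02 and 7.93, with both KO arrays below both het arrays. Both KO arrays lay below in 5 of the 8 markers and above in 1, beside 22.4% and 26.9% of all tested probe sets. Hair follicle bulge markers (8 of 8 tested, Tcf7l1 among them) were 3 higher and 5 lower, with mean levels of 9.78 and 9.63 against 9.76 and 9.58.

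For muscle and sebocyte markers the mean levels also did not overlap between the genotypes, and here the KO arrays lay above. Skeletal muscle markers were higher in KO skin in 10 of 10 genes, with mean levels of 12.01 and 12.06 in the het arrays and 12.79 and 12.52 in the KO arrays. Sebocyte markers (9 of 10 tested) were higher in 8 of 9, with mean levels of 11.09 and 10.66 against 11.52 and 11.44. Adipocyte markers (8 of 8 tested) were higher in 6, but their mean levels overlapped, at 10.89 and 10.37 against 10.57 and 10.81. The part of these cell types in the differences of the Wnt genes was not tested.

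Of the other secreted inhibitors, none of the 7 tested had an unadjusted limma p under 0.05 in the main fit. This group holds Dkk1, Dkk2, Dkk3 and Dkk4, Wif1, the Wnt deacylase Notum, and Kremen1, a DKK receptor. Their differences ran from -0.22 for Dkk4 to 0.18 for Dkk3, with a median of -0.04, and the median was 0.04 after median centring. Dkk4 differed by -0.34 with the values as deposited (unadjusted limma p 0.033, adjusted p 0.208) and by -0.30 after median centring. Dkk3, a divergent member of the DKK family, read 8.18 and 8.01 in the het arrays and 8.35 and 8.21 in the KO arrays, above both het arrays by a narrow margin.

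Dkk2 read 8.57 and 8.40 in the het arrays and 8.51 and 8.30 in the KO arrays. Wif1 read 8.20 and 8.34 in the het arrays and 7.95 and 8.50 in the KO arrays, where the KO mice lay on either side of the het mice. Its difference of -0.04 had a 95% interval of -0.50 to 0.41, which leaves room for a change of either sign. Notum read 7.15 and 6.97 in the het arrays and 7.18 and 7.20 in the KO arrays.

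Of the 19 Wnt ligand genes, 16 were tested, and 7 were higher and 9 lower in KO skin, with a median of -0.02 that was 0.02 after median centring. Wnt1, Wnt7a and Wnt8b lay below the filter, as did Rspo2 among the R-spondins, at levels between 5.87 and 6.81 in all 4 arrays. In the main fit an unadjusted limma p under 0.05 was reached by 1 higher ligand, Wnt3, and 3 lower ligands, Wnt16, Wnt2 and Wnt9b. Without a filter Wnt3 stayed under it (limma p 0.043), while Wnt16 (0.059), Wnt2 (0.054) and Wnt9b (0.055) did not. Wnt9b also missed it with the values as deposited (limma p 0.062) and after median centring (-0.19, limma p 0.14). Wnt16 missed it after median centring (limma p 0.058).

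Wnt3, a canonical ligand of the skin epithelium, read 8.39 and 8.39 in the het arrays and 8.70 and 8.61 in the KO arrays. The difference was 0.26 (SE 0.10, limma adjusted p 0.302), and both KO arrays lay above. Wnt9b, which lies next to Wnt3 on chromosome 11, read 8.06 and 8.05 in the het arrays and 7.79 and 7.80 in the KO arrays. Here both KO arrays lay below, with a difference of -0.26 (SE 0.10, limma adjusted p 0.308). The mice of each genotype differed by only 0.01 for Wnt9b, and the neighbouring ligand genes thus read in opposite directions.

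Wnt16, a ligand expressed in the follicle epithelium, read 7.66 and 7.95 in the het arrays and 7.53 and 7.36 in the KO arrays. The KO arrays lay below, with a difference of -0.36 (SE 0.14, limma adjusted p 0.320), and by -0.21 without het mouse 2. Wnt2 read 7.47 and 7.37 in the het arrays and 7.09 and 7.15 in the KO arrays, a difference of -0.31 (SE 0.12, limma adjusted p 0.317) without overlap.

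Wnt7b, which is made by hair follicle stem cells, was just outside the threshold. It read 8.33 and 8.41 in the het arrays and 8.19 and 7.99 in the KO arrays, a difference of -0.28 (unadjusted limma p 0.051). It was -0.18 without KO mouse 2. The remaining ligands named for their known roles in skin had 95% intervals that spanned 0. Wnt10b, a ligand linked to the start of follicle growth, read 7.49 and 7.15 in the het arrays and 7.38 and 7.24 in the KO arrays. The difference was -0.01, with a 95% interval of -0.40 to 0.37.

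Wnt10a, a ligand of epidermis and follicle, read 8.94 and 8.79 in the het arrays and 8.72 and 8.81 in the KO arrays. Wnt5a, the main non-canonical ligand of the dermis, read 8.11 and 7.46 in the het arrays and 7.76 and 7.97 in the KO arrays. The gap of 0.65 between the het mice was the largest within a genotype among the tested members, and the KO mice lay between them. Wnt4, another epidermal ligand, had 2 probe sets, which disagreed in sign. The brighter read 8.74 and 8.81 in the het arrays and 8.58 and 8.75 in the KO arrays, a difference of -0.11. The other read 8.37 and 8.12 against 8.73 and 8.27, a difference of 0.25, and both sets of arrays overlapped.

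The receptor genes differed less than the SFRPs. Of the 10 tested Frizzled genes, 6 were higher and 4 lower, and none had an unadjusted limma p under 0.05 in the main fit. Their differences ran from -0.16 for Fzd9 to 0.25 for Fzd8, with a median of 0.07. With Fzd10os included they were 6 higher and 5 lower with a median of 0.05, and 8 higher and 3 lower with a median of 0.19 after median centring. Fzd10os, the non-coding neighbour of Fzd10, differed by -0.21 and Fzd10 itself by 0.13. Fzd10 read 7.98 and 8.11 in the het arrays and 8.20 and 8.14 in the KO arrays. Both KO arrays lay above, the nearest by under 0.1.

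Fzd6, which orients hairs through planar cell polarity, read 9.53 and 9.44 in the het arrays and 9.62 and 9.45 in the KO arrays. Fzd1 read 9.86 and 9.55 in the het arrays and 9.77 and 9.61 in the KO arrays. Fzd7 read 9.55 and 9.26 in the het arrays and 9.59 and 9.40 in the KO arrays. In all 3 genes the arrays of the genotypes overlapped, and mouse 1 of each genotype read above mouse 2.

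The co-receptor Lrp6 read 10.00 and 10.03 in the het arrays and 9.94 and 9.72 in the KO arrays. The KO arrays lay below, with a difference of -0.19 (95% interval -0.46 to 0.09), and by -0.08 without KO mouse 2. Lrp5 read 9.60 and 9.80 in the het arrays and 9.76 and 9.62 in the KO arrays, with a difference of -0.01 and overlapping arrays.

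R-spondins and their receptors gave 1 higher and 5 lower of 6 tested genes, or 3 and 3 after median centring. None had an unadjusted limma p under 0.05 in the main fit. Rspo3 did after median centring (-0.43, unadjusted limma p 0.047, adjusted p 0.251). Lgr6 did without a filter (unadjusted limma p 0.044, adjusted p 0.390). Rspo3, an R-spondin of mesenchymal cells, read 7.61 and 8.06 in the het arrays and 7.26 and 7.53 in the KO arrays. Both KO arrays lay below, and the difference was -0.44 (SE 0.19, limma adjusted p 0.330). It was -0.22 without het mouse 2 and -0.67 without het mouse 1. Rspo1 read 8.52 and 8.38 in the het arrays and 8.29 and 8.43 in the KO arrays, which overlapped.

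Lgr6, a marker of stem cells in the upper follicle, read 9.26 and 9.25 in the het arrays and 9.05 and 8.99 in the KO arrays. The difference was -0.24 (SE 0.10, limma adjusted p 0.328) with no overlap, and was -0.08 after median centring. Lgr5, a marker of the lower bulge and hair germ and itself a Wnt target, read 9.04 and 9.04 in the het arrays and 9.11 and 8.94 in the KO arrays. Its difference was -0.02, with a 95% interval of -0.28 to 0.25. Lgr4, the more widely expressed receptor, read 9.59 and 9.50 in the het arrays and 9.63 and 9.61 in the KO arrays.

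**Figure D3:**
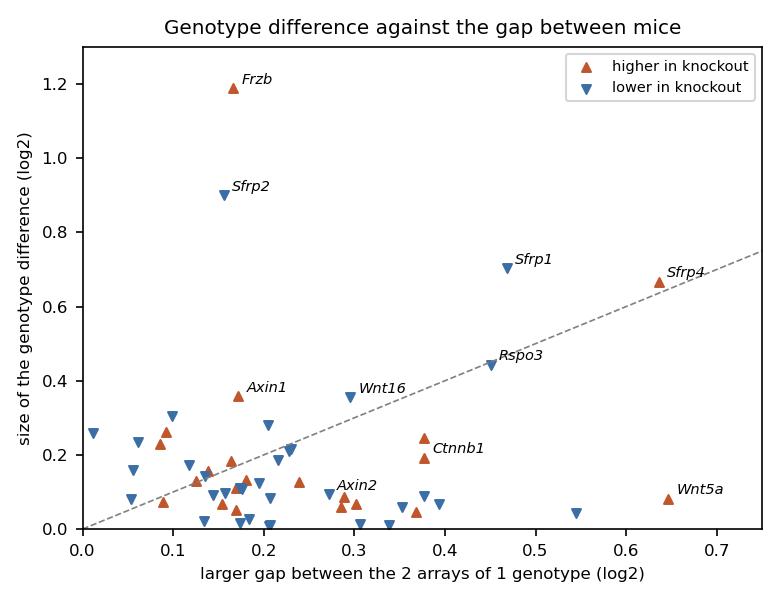
Size of the genotype difference (vertical axis, log2) against the larger gap between the 2 arrays of 1 genotype (horizontal axis, log2) for the 54 tested genes, with triangles pointing up for higher and down for lower in KO skin. Points above the dashed line, 19 of 54, have a genotype difference larger than either gap, and Frzb and Sfrp2 stand farthest above it.

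Inside the cell, Axin1, the scaffold of the destruction complex, read 8.66 and 8.49 in the het arrays and 9.00 and 8.87 in the KO arrays. Both KO arrays lay above, by 0.36 (SE 0.11, limma adjusted p 0.246), a signal 1.28-fold higher. Apc, the partner of AXIN1 in that complex, differed by -0.08 (95% interval -0.32 to 0.16), which was 0.062 after median centring. Ctnnb1, which encodes beta-catenin, read 11.39 and 11.14 in the het arrays and 11.65 and 11.27 in the KO arrays. Its arrays overlapped, with a difference of 0.19 (95% interval -0.18 to 0.57), and the difference was 0.0046 without KO mouse 1 and 0.38 without KO mouse 2. As background, beta-catenin is controlled mainly through its protein.

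The nuclear partners of beta-catenin showed no difference beyond the gap between mice, except Tcf7l2. Tcf7l2 read 9.07 and 9.02 in the het arrays and 8.93 and 8.81 in the KO arrays, with both KO arrays below. Its difference was -0.17 (limma adjusted p 0.464), which was -0.02 after median centring. Lef1, which rises in growing follicles, read 7.96 and 8.01 in the het arrays and 8.23 and 7.99 in the KO arrays. Tcf7l1, a repressive TCF of the bulge, read 8.34 and 7.99 in the het arrays and 8.19 and 8.02 in the KO arrays. The latter genes had overlapping arrays.

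Axin2, the most widely used target gene of canonical Wnt signalling, did not separate the genotypes. It read 8.92 and 8.65 in the het arrays and 8.77 and 8.62 in the KO arrays. The difference was -0.09 (SE 0.13, 95% interval -0.41 to 0.22, limma adjusted p 0.760), and 0.05 after median centring. The KO signal was 93.7% of the het signal. Other feedback targets of the pathway, picked for that role with their values known, also had no unadjusted limma p under 0.05. Nkd1 differed by -0.14, Rnf43 by -0.25, Znrf3 by -0.05 and Sp5 by 0.24. After median centring the differences were -0.0088 for Nkd1, -0.17 for Rnf43, 0.10 for Znrf3 and 0.17 for Sp5. As quantile normalized, both KO arrays lay below both het arrays for Nkd1 and Rnf43 and above them for Sp5, while those of Znrf3 overlapped. Such a lack of overlap was seen in 49.4% of all tested probe sets.

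**Figure D4:**
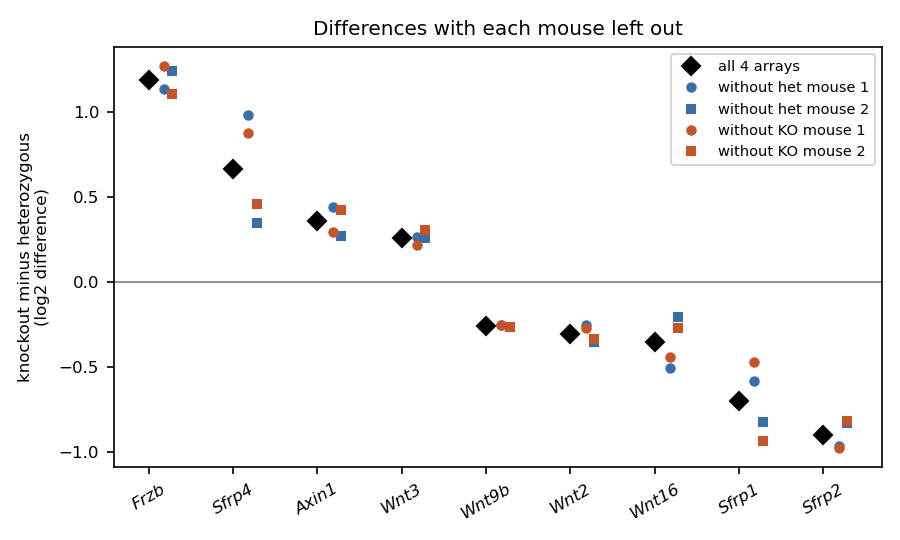
Difference between KO and het arrays (vertical axis, log2) for the 9 genes with an unadjusted p under 0.05, with all 4 arrays (diamond) and with each mouse left out in turn (circles for mouse 1, squares for mouse 2). All 9 keep their sign in each case, and Sfrp4 ranges from 0.35 to 0.99.

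A wider list of pathway genes outside the symbol rule gave a like picture. Of 103 such genes on the array, 98 were tested, 6 of them higher and 5 lower at an unadjusted p under 0.05, beside the 9.64% and 5.82% of all tested probe sets given above. Their median difference was 0.01. Of the cytoplasmic genes 18 of 22 were higher, with a median of 0.10, and 20 of 22 after median centring, and 2 of them, Dact1 (0.34, SE 0.10), a regulator of Dishevelled, and Fbxw11 (0.29, SE 0.11), a ubiquitin ligase subunit that acts on beta-catenin, had an unadjusted p under 0.05. Of 14 tested genes of Wnt secretion and extracellular modulation, 10 were lower, or 5 after median centring, and Ndp, which encodes the Frizzled ligand norrin, had the only unadjusted p under 0.05 (-0.46, SE 0.16).

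Of 28 tested genes described as Wnt targets in some tissue, 14 were higher and 14 lower, or 18 and 10 after median centring. Vcan, the proteoglycan versican, was higher by 0.60 (SE 0.16), and Fn1 (fibronectin), Ascl2, Foxn1 and Dlx3 were lower, all with an unadjusted p under 0.05. Fn1 read 12.05 and 11.82 in the het arrays and 11.32 and 11.54 in the KO arrays, a difference of -0.51 (SE 0.12). The differences were -0.39 for Ascl2, -0.39 for Foxn1, a transcription factor of the hair shaft, and -0.25 for Dlx3. After median centring they were -0.41 for Ascl2, -0.35 for Foxn1 and -0.10 for Dlx3. Dlx3 did not reach the threshold then (unadjusted limma p 0.46), nor with the values as deposited (-0.14, unadjusted limma p 0.25). Musk, a receptor kinase of the neuromuscular junction with a Frizzled-like domain, had the highest difference of the wider list, at 0.71 (SE 0.14). It read 7.15 and 7.48 in the het arrays and 8.08 and 7.97 in the KO arrays, in which the muscle markers were also higher. Ctbp2, a co-repressor, and Daam2, a formin that acts with Dishevelled, were higher by 0.28 (SE 0.11) and 0.44 (SE 0.16). None of these genes passed after adjustment over all probe sets with limma, and the smallest adjusted p was 0.152, for Musk.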

How the data were processed

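The members and gene lists were chosen with earlier results of these data known, so no list is independent support. Per the labels' protocols, TRIzol and then RNeasy purification gave the RNA, which the Ambion WT expression kit turned into biotin-labelled target. The submitters' processing notes name Affymetrix Expression Console 1.1.1 and PLIER 2.0. The authors deposited 1 table of 35557 probe sets, taken from its range to hold log2 values. Neither that scale nor a normalization between arrays is stated. Signals near background compress differences. With arrays, precision is limited by the number of mice.

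Probe sets were named through the platform annotation (21789 with 1 gene, 1621 with several, 12147 with none), and 21698 symbols were updated by gene identifier with GRCm38.p6. Quartiles of the arrays differed by up to 0.34, so all 4 were quantile normalized, under a rule that kept the deposited values only where medians and quartiles lay within 0.1. Tested were 17557 of the 23410 gene-paired probe sets, those with a mean above the 25th percentile (6.66). limma 3.58.1 in R 4.3.3 was fitted with a mean trend and 2 residual degrees of freedom, with p adjusted by Benjamini-Hochberg across that whole set. SEs are moderated by limma. On data simulated for this comparison over 17557 probe sets, the test recovered 1 of 67 true 1.5-fold changes, 37 of 67 at 2-fold and all 66 at 4-fold, with 6 false calls. The simulation changed only these probe sets and drew noise independently for each array. In the real arrays, deviations of same-numbered mice correlated at 0.62, so these rates need not hold for them.

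All 4 arrays' values are given for Arntl, members with an unadjusted p under 0.05 and a list of members picked for their role. Nkd1, Rnf43, Znrf3 and Sp5 were added with values known. Apart from the 9 members, Rspo3, Wnt7b and Lgr6 lay just outside that threshold. Alternatives were the deposited values, median centring, no filter, a 50th percentile filter, no trend, a robust prior, 1 probe set or the mean of probe sets per gene, an offset of 16, a replicate block and each mouse left out. The first principal component (62.8% of the variance) ran from KO mouse 1 (score -27.4) over het mouse 1 (-8.88) and KO mouse 2 (2.84) to het mouse 2 (33.5), with mouse 1 below mouse 2 in both genotypes.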

Additional observations from a re-analysis of the deposited data

How the results depend on the processing

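Frzb, Sfrp2, Sfrp1, Sfrp4, Axin1, Wnt3, Wnt9b, Wnt2, Wnt16 and Arntl kept the sign of their difference under every alternative in which they were tested. With each mouse left out in turn, Frzb ran from 1.11 to 1.27, Sfrp2 from -0.98 to -0.82, Sfrp1 from -0.94 to -0.47 and Sfrp4 from 0.35 to 0.99. Their calls at an adjusted p of 0.05 depended on the scaling, the variance estimate and which probe sets were tested. With limma, Frzb was called after median centring (adjusted p 0.044), with the filter at the 50th percentile (0.032), a robust prior (0.010) and 1 probe set per gene (0.0027). Sfrp2 was called under the last 3 of these (0.035, 0.015 and 0.0051) and Sfrp1 only with 1 probe set per gene among them (0.046). The mean of a gene's probe sets called Frzb, Sfrp1 and Sfrp2. Musk was called with 1 probe set per gene and with the mean of probe sets, and Arntl under these, the 50th percentile filter and the robust prior. After median centring 25 of all 17557 tested probe sets were called (0.14%), beside 1 of 54 members. With the 50th percentile filter the counts were 119 of 11705 (1.02%) and 2 of 38 members. A robust prior called 202 of 17557 (1.15%) and 2 of 54 members. With 1 probe set per gene, 383 of 14945 (2.56%) and 3 of 54 members were called. The mean of probe sets called 371 of 14945 (2.48%) and 3 of 54 members. Without a filter, without a trend, with the values as deposited, with the offset of 16 and with any mouse left out, both counts were 0. The smallest members' counts came without het mouse 2. At an unadjusted p under 0.05, the members numbered 1 to 5 higher and 2 to 4 lower with a mouse left out, against 1192 to 3434 of all probe sets. The lower members were 3 without a filter and with the 50th percentile filter, and 8 with the mean of probe sets.

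Mice 1 and 2 of each genotype share a number in the labels, which do not say that it marks a litter. Deviations of same-numbered arrays from their genotype means correlated at 0.62 across probe sets. With the numbers of either genotype swapped the value is -0.62 by construction, so it cannot show that the numbers mark pairs. There are also too few pairs to settle the pairing. With the replicate block, limma called 1308 of 17557 probe sets (7.45%) and 4 of 54 members, so the share of members was near that of the array. The 4 were Frzb (limma adjusted p 2.0e-04), Sfrp2 (0.0022), Sfrp1 (0.019) and Rspo3 (0.041). Arntl, Musk, Fn1, Vcan, Ndp and Daam2 were called too.

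Members near 0 changed sign, and the cause was not tested beyond the shift that each scaling gives to all probe sets, whose median difference was 0.01 as normalized, 0.06 as deposited and 0.09 after median centring. With the values as deposited and after median centring, in this order, the differences were 0.012 and 0.047 for Axin2, 0.10 and 0.13 for Lgr5, 0.0065 and 0.042 for Wnt4, 0.019 and 0.054 for Wnt10a, 0.085 and 0.12 for Fzd1, 0.0091 and 0.045 for Dkk2, 0.014 and 0.049 for Wif1, 0.10 and 0.13 for Lrp5, 0.027 and 0.062 for Apc, 0.0033 and 0.039 for Sfrp5, and 0.061 and 0.097 for Znrf3. After median centring Tcf7l1 was at 0.029 and Rspo1 at 0.022, and Wnt4 was at 0.073 with the mean of its probe sets. With each mouse left out the ranges were -0.23 to 0.043 for Axin2, -0.24 to 0.12 for Tcf7l1, -0.18 to 0.16 for Wnt10b, -0.17 to 0.14 for Fzd1, -0.19 to 0.020 for Dkk2, -0.24 to 0.41 for Wnt5a, -0.057 to 0.23 for Fzd7, -0.32 to 0.23 for Wif1, -0.11 to 0.10 for Lrp5, -0.033 to 0.14 for Fzd6, -0.12 to 0.092 for Sfrp5 and -0.10 to 0.071 for Lgr5. Signals near background, as for Wnt1, Wnt7a, Wnt8b and Rspo2, limit what these arrays can show.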
